A study of Mus musculus with 11 samples.

Results

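The unfolded protein and amino acid stress response was followed through 9 genes in mouse liver: Xbp1, Atf4, Ddit3, Hspa5, Dnajb9, Herpud1, Asns, Trib3 and Chac1. Each was taken by its gene symbol, and each had 1 probe set annotated to that symbol alone, so all 9 were measured among the 19938 genes of the array data. RNA came from liver of male mice aged 14 months, on 3 arrays of wild type C57BL/6, 4 arrays of Mdr2-KO and 4 arrays of Mdr2-KO/IL6-KO. Both knockout groups lack Mdr2, the canalicular phospholipid transporter encoded by Abcb4, and the double knockout lacks interleukin 6 as well. Knockout tissue was labelled tumour free, and a strain was stated for wild type alone. The Mdr2-KO/IL6-KO group is called the double knockout here. No label ties an array to a mouse of its own, so the p-values cover the spread from array to array, which may be technical. Sample titles number wild type and the knockouts in separate series, and what those series stand for cannot be told apart from genotype in comparisons with wild type.

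The unfolded protein response senses misfolded protein in the endoplasmic reticulum (ER) through the membrane proteins IRE1, PERK and ATF6. IRE1 splices the mRNA of Xbp1 to make an active transcription factor that drives chaperone and degradation genes. PERK, and the amino acid sensor GCN2, phosphorylate the initiation factor eIF2alpha, which slows protein synthesis yet raises translation of Atf4, and ATF4 then drives genes of amino acid supply and of cell death. In the liver, hepatocytes secrete most plasma proteins and carry a large ER, and Xbp1 is known there for its role in secretion and lipid synthesis.

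Sequences before the transcription start were read from RefSeq promoters of build GRCm38.p6, which held all 9 genes. Shown are the 250 bases before the start of the genes with a stress element in that stretch and of Xbp1, the one of the 9 members with the lowest adjusted p below. Capitals mark fixed letters of matched elements, and spacer letters stay in lower case.
Hspa5 (chr2:34771840-34772089, plus strand): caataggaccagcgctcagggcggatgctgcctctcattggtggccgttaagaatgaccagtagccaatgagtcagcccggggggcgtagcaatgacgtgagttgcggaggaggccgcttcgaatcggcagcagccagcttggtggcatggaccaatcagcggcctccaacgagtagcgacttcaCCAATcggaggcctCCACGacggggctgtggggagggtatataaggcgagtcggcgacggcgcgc
Herpud1 (chr8:94386179-94386428, plus strand): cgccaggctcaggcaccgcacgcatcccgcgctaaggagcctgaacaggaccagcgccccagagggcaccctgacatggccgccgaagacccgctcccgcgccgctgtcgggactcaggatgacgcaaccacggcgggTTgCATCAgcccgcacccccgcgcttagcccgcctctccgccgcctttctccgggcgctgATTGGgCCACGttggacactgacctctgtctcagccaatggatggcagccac
Asns (chr6:7693210-7693459, minus strand): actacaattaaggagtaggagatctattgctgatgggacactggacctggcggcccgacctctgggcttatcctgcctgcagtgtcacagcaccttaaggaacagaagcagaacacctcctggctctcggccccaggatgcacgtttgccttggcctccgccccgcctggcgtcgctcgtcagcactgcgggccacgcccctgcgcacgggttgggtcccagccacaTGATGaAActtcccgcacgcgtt
Chac1 (chr2:119350992-119351241, plus strand): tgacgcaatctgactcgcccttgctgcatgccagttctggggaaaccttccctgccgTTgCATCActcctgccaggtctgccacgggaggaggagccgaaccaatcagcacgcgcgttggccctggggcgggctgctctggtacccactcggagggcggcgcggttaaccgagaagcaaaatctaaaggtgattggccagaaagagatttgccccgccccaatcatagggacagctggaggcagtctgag
Xbp1 (chr11:5520391-5520640, plus strand): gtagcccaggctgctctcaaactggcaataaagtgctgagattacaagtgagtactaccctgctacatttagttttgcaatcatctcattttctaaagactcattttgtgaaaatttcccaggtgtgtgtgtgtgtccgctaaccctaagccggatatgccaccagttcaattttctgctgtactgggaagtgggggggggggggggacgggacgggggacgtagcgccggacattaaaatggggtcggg
Both strands of the window from 250 bases before to 50 after each start were searched for 5 elements. The ER stress element, CCAAT and CCACG with 9 free bases between them, was present in Hspa5 at positions -65 to -47 from the start and in 0.119% of all 32851 promoter windows. Its relative ERSE-II, ATTGG and CCACG with 1 free base between them, was present in Herpud1 at positions -52 to -42 and in 0.0365% of windows. The C/EBP-ATF response element, searched as TGATGNAA, was present in 4 of the 9 genes and in 3.97% of windows: Asns, Chac1, Herpud1 and, within the transcribed part and so not shown, Trib3. No member window held the unfolded protein response element TGACGTGG (0.676% of windows) or the STAT element TTCNNNGAA (8.3% of windows), which says only that those letters were not in these windows. None of the matches overlapped another.

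Levels are log2 values on the scale the authors deposited, 1 per gene and array. Spliced and unspliced Xbp1 mRNA, which differ by a short intron, share that 1 value. Array medians lay between 5.09 and 5.23 and no array duplicated another. Abcb4 fell in Mdr2-KO (log2 change -2.09 ± 0.13 SE, limma adjusted p = 2.22e-06) and also in the double knockout (-1.74 ± 0.13 SE, limma adjusted p = 6.75e-06). Its arrays ranged from 9.74 to 9.95, from 7.54 to 7.98 and from 7.83 to 8.32 in wild type, Mdr2-KO and the double knockout. Il6 lay between 1.62 and 2.09 on all 11 arrays, near the lowest value of the table (0.638), overlapped between groups and so did not check the IL6-KO label (log2 change -0.11 between the knockouts, 95% interval -0.30 to 0.09). The liver labels were met by the hepatocyte genes Alb, at 13.25 to 13.38 on the 11 arrays, and Ttr, at 12.68 to 12.96. In whole tissue, fewer cells of a type and less RNA per cell cannot be told apart.

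Among the transcription factors, Xbp1 and Atf4 were lower in livers without both genes and Ddit3 was not called in any comparison. Xbp1 stood at 10.41, 10.11 and 10.46 on the wild-type arrays, at 10.23, 9.94, 9.94 and 9.55 for Mdr2-KO, and at 9.62, 9.29, 9.72 and 9.52 for the double knockout. All 4 double knockout arrays lay below all 3 wild-type arrays, and the Mdr2-KO arrays spanned the gap and overlapped each neighbour. The group levels were 10.33 ± 0.189 (SD, n = 3), 9.91 ± 0.279 (SD, n = 4) and 9.54 ± 0.183 (SD, n = 4). Xbp1 fell 1.73-fold in the double knockout against wild type (log2 change -0.79 ± 0.15 SE, limma adjusted p = 0.00922). Neither step between neighbouring groups passed: the log2 change was -0.41 ± 0.15 SE from wild type to Mdr2-KO (limma adjusted p = 0.322) and -0.38 ± 0.14 SE from Mdr2-KO to the double knockout (limma adjusted p = 0.9995).

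Atf4, the effector of the eIF2alpha arm, is controlled largely at translation, which an mRNA level does not show. It stood at 7.62, 7.93 and 7.70 on the wild-type arrays, at 7.56, 7.48, 7.56 and 7.39 for Mdr2-KO, and at 7.24, 6.99, 7.33 and 7.43 for the double knockout. Every knockout array was below every wild-type array, while the knockout groups overlapped. Atf4 fell 1.42-fold in the double knockout against wild type (log2 change -0.51 ± 0.11 SE, limma adjusted p = 0.0212). The changes of -0.26 in Mdr2-KO against wild type (limma adjusted p = 0.464) and -0.25 between the knockouts (limma adjusted p = 0.9995) did not pass. The call of Atf4 ended without wild-type replicate 2 (limma adjusted p = 0.103) or 3 (0.0575) and without double knockout replicate 1 (0.0553) or 2 (0.0543). Ddit3 encodes CHOP, the factor tied to cell death under lasting ER stress. It read 6.19, 6.00 and 5.93 in wild type, 5.81 to 6.33 in Mdr2-KO (median 6.15) and 6.04 to 6.25 in the double knockout (median 6.15), all overlapping. Its log2 change in the double knockout against wild type had a 95% interval from -0.16 to 0.37.

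**Figure D1:**
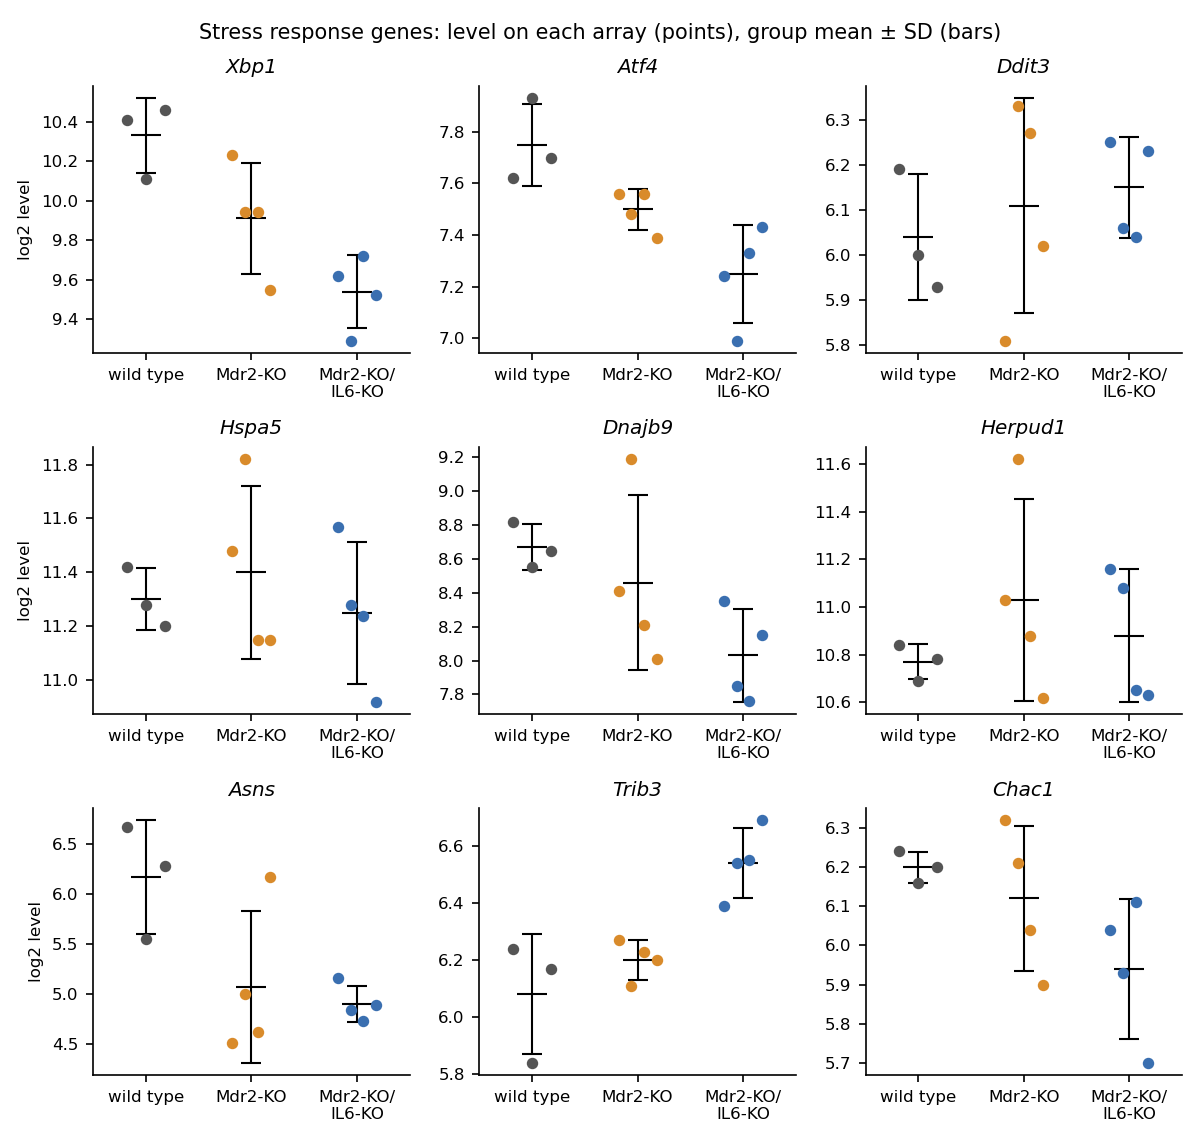
Log2 level of each of the 9 genes (y axis, own range per panel) in the 3 groups (x axis); points are arrays, and bars give the group mean ± SD. Xbp1, Atf4, Dnajb9, Asns and Chac1 have every Mdr2-KO/IL6-KO array below every wild-type array, Trib3 every one above, and Mdr2-KO replicate 2 is the highest point for Hspa5, Dnajb9 and Herpud1.

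The ER genes Hspa5 and Herpud1 gave no call in any comparison. Hspa5 encodes BiP, the main ER chaperone of the HSP70 class, which also holds the sensors inactive. It stood at 11.42, 11.28 and 11.20 on the wild-type arrays, at 11.48, 11.82, 11.15 and 11.15 for Mdr2-KO, and at 11.57, 11.28, 11.24 and 10.92 for the double knockout. The groups overlapped, and the knockout groups spread wider than wild type. Its log2 change in the double knockout against wild type was -0.05 (95% interval -0.41 to 0.32, limma adjusted p = 0.946), and quantile normalization turned the sign, to 0.03. In Mdr2-KO against wild type the interval was -0.26 to 0.47. Herpud1, an ER membrane protein that helps dispatch misfolded proteins to the proteasome, stood at 10.84, 10.69 and 10.78 on the wild-type arrays, at 11.03, 11.62, 10.88 and 10.62 for Mdr2-KO, and at 11.16, 11.08, 10.65 and 10.63 for the double knockout. Wild-type arrays lay inside the range of each knockout group, and the interval of the change in the double knockout was -0.31 to 0.54.

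Dnajb9, the BiP co-chaperone ERdj4 and a known XBP1 target, stood at 8.82, 8.55 and 8.65 on the wild-type arrays, at 8.41, 9.19, 8.21 and 8.01 for Mdr2-KO, and at 8.35, 7.85, 7.76 and 8.15 for the double knockout. Every double knockout array was below every wild-type array, but 1 Mdr2-KO array, replicate 2, was the highest of all 11. The log2 change in the double knockout against wild type was -0.65 ± 0.23 SE and did not pass (limma adjusted p = 0.159). Without Mdr2-KO replicate 2 it passed (limma adjusted p = 0.0218), as it did with only the 2 groups compared (0.0294). These were 2 of 17 alternatives. In the others it did not pass, at a limma adjusted p of up to 0.403 (without wild-type replicate 1). The log2 change was still -0.65 in the 2 alternatives that passed. Mdr2-KO replicate 2 is in neither group compared, so leaving it out changed the pooled spread and not the difference.

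Of the genes tied to amino acids and glutathione, Trib3 was the single member that rose. Asns encodes asparagine synthetase, a textbook ATF4 target that makes asparagine when amino acids run short. It stood at 6.67, 5.55 and 6.28 on the wild-type arrays, at 4.51, 5.0, 4.62 and 6.17 for Mdr2-KO, and at 5.16, 4.84, 4.73 and 4.89 for the double knockout. In 7 of the 8 knockout arrays it was below every wild-type array, and Mdr2-KO replicate 4 lay inside the wild-type range. Its differences from wild type were larger than those of the other 8 members, and its wild-type and Mdr2-KO arrays also spread widest: the log2 change was -1.09 ± 0.34 SE in Mdr2-KO (limma adjusted p = 0.188) and -1.26 ± 0.34 SE in the double knockout (limma adjusted p = 0.0534), so neither passed. Without Mdr2-KO replicate 4 both did, at log2 changes of -1.46 (limma adjusted p = 0.0129) and -1.26 (limma adjusted p = 0.00615). That array is in neither group of the double knockout comparison, where the change stayed at -1.26 while the pooled spread changed. The change in the double knockout also passed without wild-type replicate 2 (0.0357), without Mdr2-KO replicate 1 (0.0464), with median centring (0.0486) and with only the 2 groups compared (0.00919). That made 5 of 16 alternatives, and the limma adjusted p reached 0.226 without wild-type replicate 1. In Mdr2-KO the change passed in 1 of 16 and reached 0.567. The mean level of Asns lay at the 45.3 percentile of all genes, so the alternative with brighter genes only did not hold it.

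Trib3, a pseudokinase induced by ATF4 and CHOP that restrains both and the kinase AKT, stood at 6.24, 5.84 and 6.17 on the wild-type arrays, at 6.27, 6.11, 6.23 and 6.20 for Mdr2-KO, and at 6.39, 6.54, 6.55 and 6.69 for the double knockout. All 4 double knockout arrays were above the other 7. It rose 1.38-fold against wild type (log2 change 0.46 ± 0.11 SE, limma adjusted p = 0.0273), the opposite direction to Atf4, whereas the change of 0.34 ± 0.10 SE against Mdr2-KO did not pass (limma adjusted p = 0.792). The call against wild type ended without wild-type replicate 2 (limma adjusted p = 0.12) or 3 (0.0559) and without double knockout replicate 2 (0.0656), 3 (0.0669) or 4 (0.0703). Chac1, an ATF4-driven enzyme that breaks down glutathione, stood at 6.24, 6.16 and 6.20 on the wild-type arrays, at 6.32, 6.21, 6.04 and 5.90 for Mdr2-KO, and at 6.04, 5.93, 6.11 and 5.70 for the double knockout. Its double knockout arrays lay below wild type by a small margin, and the log2 change of -0.26 did not pass (limma adjusted p = 0.31).

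**Figure D2:**
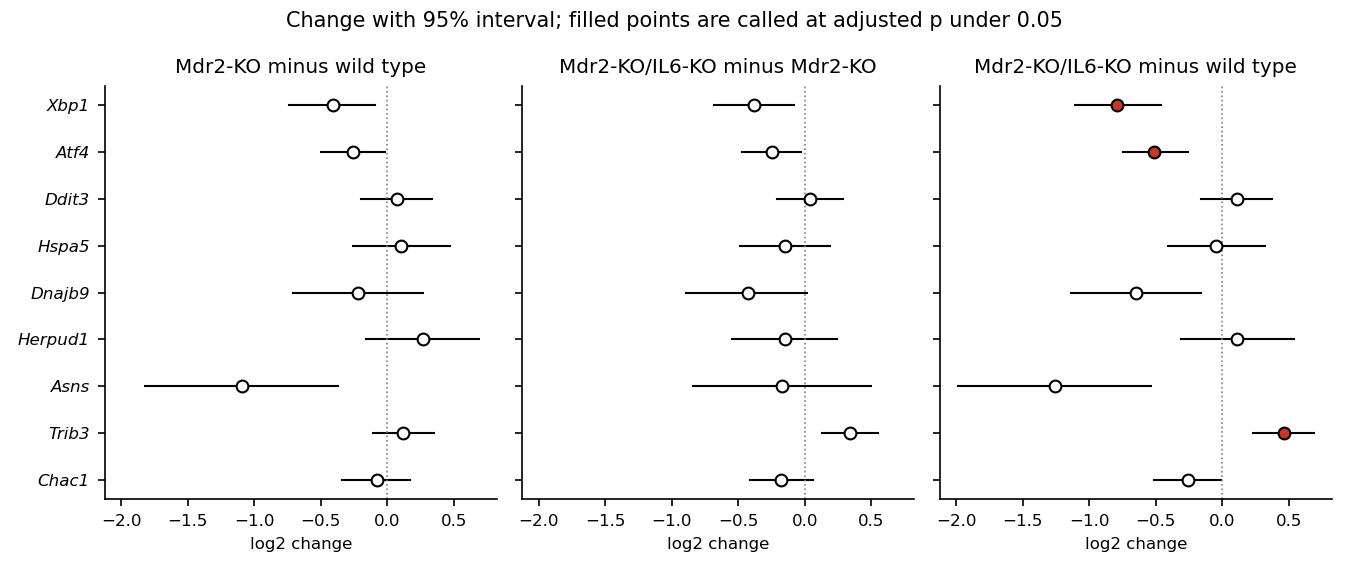
Log2 change of the 9 genes (x axis) in the 3 comparisons (panels), with 95% intervals from the limma model; filled points are called at an adjusted p under 0.05. Xbp1 (-0.79), Atf4 (-0.51) and Trib3 (0.46) are filled, all in Mdr2-KO/IL6-KO against wild type, and the intervals of Hspa5, Herpud1 and Ddit3 span 0 in every panel.

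Counted together, limma called 0 of 9 members in Mdr2-KO against wild type, where 1.26% of all genes were called. At an unadjusted p under 0.05 there were 3, Xbp1, Atf4 and Asns, against 9.79% of all genes. Between the knockouts 0 of 9 were called, against 0.00502% of all genes, and 3 had an unadjusted p under 0.05, namely Xbp1, Atf4 and Trib3, against 4.82%. In the double knockout against wild type 3 of 9 were called, against 4.19% of all genes: 2 were lower (1.28% of all genes) and 1 was higher (2.91%). Here 6 of 9 had an unadjusted p under 0.05, against 15.5%. Arrays did not overlap for 6 of 9 members in that comparison (16.3% of all genes), for 1 in Mdr2-KO against wild type (Atf4; 9.13%) and for 1 between the knockouts (Trib3; 2.51%). These comparisons share arrays and are not independent of one another. Members and lists were chosen with earlier results of these data known. Their counts beside the shares of all genes are therefore descriptions and do not test the set. The order of the group means ran downward from wild type through Mdr2-KO to the double knockout for 5 members, Xbp1, Atf4, Dnajb9, Asns and Chac1, and for 21.9% of all genes. It ran upward for Ddit3 and Trib3 and for 24.2% of all genes, while no step between neighbouring groups passed for any of the 9. The median log2 change of the members was -0.08 in Mdr2-KO and -0.26 in the double knockout against wild type, beside -0.01 and -0.00 over all genes.

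Markers of other cells moved with these comparisons. Of 7 measured bile duct cell markers 4 rose in the double knockout against wild type, as in Mdr2-KO: Epcam, Krt19, Krt23 and Cd24a. In the double knockout against wild type 2.91% of all genes were called higher and 1.28% lower. In Mdr2-KO 1.26% were called in either direction. The summed linear signal of the 7 bile duct cell markers was 310 to 344 in wild type, 547 to 687 in Mdr2-KO and 550 to 720 in the double knockout. Of 8 stellate cell and myofibroblast markers 4 rose in each knockout, with sums of 1094 to 1148, 1460 to 1612 and 1492 to 1878. None of 9 hepatocyte markers passed, and their sum was 51823 to 53097 in wild type, 49968 to 51085 in Mdr2-KO and 47917 to 50326 in the double knockout. Of 8 markers of plasma and B cells, of which plasma cells are known for high Xbp1, none passed in any comparison. The sums were 583 to 630, 500 to 711 and 537 to 667. The plasma cell gene Jchain averaged 6.07, 5.84 and 5.06 and Mzb1 4.91, 4.77 and 4.62. Jchain ran from 5.19 to 6.80 on the Mdr2-KO arrays, which overlapped both other groups. In the double knockout against wild type 2 of the 8 markers had a log2 change above 0, and the list median was -0.16. Of 6 endothelial markers 1 rose, Lyve1, and of 6 T and NK cell markers 2 fell, Gzma and Cd8a, both in the double knockout against wild type, with sums of 1377 to 1760, 1492 to 1973 and 1650 to 2033 for endothelial cells and 198 to 377, 165 to 236 and 158 to 202 for T and NK cells. No macrophage or pancreatic acinar marker passed, with sums of 1087 to 3317, 1262 to 1921 and 1341 to 2000 for macrophages and 164 to 173, 131 to 212 and 150 to 173 for acinar cells. RMA values have no 0, so no marker was at 0. The part of these cells in the changes of Xbp1, Atf4 and Trib3 was not tested.

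Whether the 9 genes varied together between arrays of a group was read after subtracting each group mean, over 11 arrays and 36 pairs. The closest pair was Hspa5 and Herpud1 (Pearson r = 0.89, exact permutation p = 0.00145 within groups, two-sided, Benjamini-Hochberg adjusted p = 0.0521; Spearman rho = 0.86, exact permutation p = 0.00116, adjusted 0.0417). Without the 2 arrays farthest from the median of Hspa5, r was 0.72, and without Mdr2-KO replicate 2 it was 0.79. Dnajb9 followed Herpud1 at r = 0.83 (rho = 0.71) and Hspa5 at r = 0.74 (rho = 0.60), with exact permutation p of 0.0307 and 0.0486 for r, 0.0587 and 0.114 for rho, and adjusted p of 0.34 each for r and of 0.423 and 0.684 for rho. Without the 2 farthest arrays, Mdr2-KO replicate 2 among them, r was 0.48 and 0.25. Without Mdr2-KO replicate 2 alone it was 0.56 and 0.45. Both were thus weaker without these arrays, though leaving out the farthest arrays narrows the range of a gene and can by itself lower r. Xbp1 with Hspa5 had an r of 0.31 (rho = 0.38) and Atf4 with Asns an r of -0.54 (rho = -0.59), at exact permutation p of 0.487 and 0.0298 for r, 0.323 and 0.0579 for rho, and adjusted p of 0.861 and 0.34 for r and of 0.891 and 0.423 for rho. Without the 2 farthest arrays these were 0.09 and -0.86. Chac1 followed Hspa5 at r = 0.74 (rho = 0.78; exact permutation p = 0.0567 and 0.0336, adjusted 0.34 and 0.403), and at 0.82 without the 2 farthest arrays. Chac1 also followed Xbp1 at r = 0.70 (rho = 0.79; exact permutation p = 0.0411 and 0.0127, adjusted 0.34 and 0.229), and at 0.41 without the 2 farthest arrays. Over the 36 pairs, 0 passed at an adjusted p under 0.05 for r and 5 had an unadjusted p under 0.05.

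**Figure D3:**
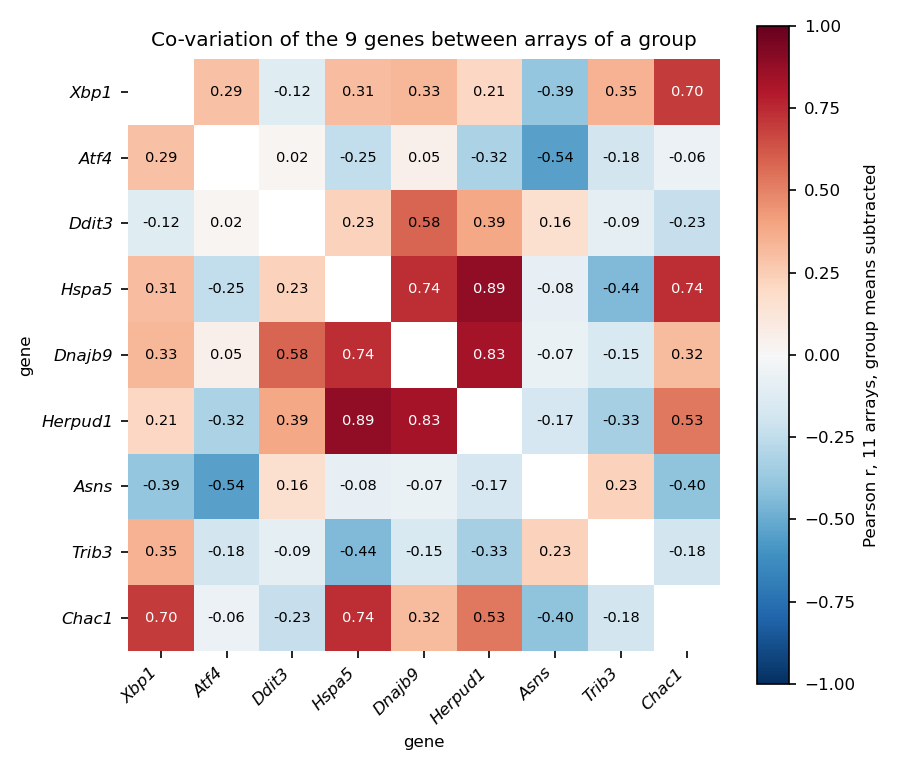
Pearson r between each pair of the 9 genes (rows and columns) over 11 arrays after subtraction of group means, from -1 (blue) to 1 (red). Hspa5, Dnajb9 and Herpud1 form a red block with r from 0.74 to 0.89. Atf4 and Trib3 have no positive r above 0.35, and their most negative are -0.54 (Atf4 with Asns) and -0.44 (Trib3 with Hspa5).

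Many of the other ER chaperones followed Hspa5 in the same values. Of 20 chaperones and folding enzymes 15 had an r above 0.6 with Hspa5, against 12.5% of all genes, with a median r of 0.72 beside 0.13 over all genes. The median was 0.59 without Mdr2-KO replicate 2, beside 0.08. Creld2, a secreted ER stress protein, was closest at 0.92. Of 15 degradation genes 5 had an r above 0.6 (median 0.36), with Edem1, which draws misfolded glycoproteins out for degradation, the closest at 0.90. Of 13 translocation and traffic genes 6 did (median 0.52), with Ssr3, a subunit of the translocon-associated protein complex, the closest at 0.95. Of 6 cytosolic heat shock genes 3 did, with a median of 0.58, and of 0.60 without Mdr2-KO replicate 2. So did 4 of 14 ATF4 and CHOP targets (median 0.36) and 2 of 7 mitochondrial chaperones and proteases (median 0.25). Among eIF2alpha kinases and phosphatases it was 1 of 6, among amino acid genes 1 of 15 and among aminoacyl-tRNA synthetases 1 of 10. ER stress sensors and ER-anchored CREB factors had 0 of 5 each. With Xbp1 itself 0 of the 20 had an r above 0.6, against 2.03% of all genes, a share too small to set 0 of 20 apart. Their median r with Xbp1 was 0.37, beside -0.00 over all genes, and 0.39 without Mdr2-KO replicate 2. All these values share the same 11 arrays and are descriptions.

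The genes whose group-centred values were most like those of a member over the 11 arrays were Gml, Tomm20l and Tmem108 for Hspa5 (r = 0.976, 0.967 and 0.951), Hsph1, Snora73a and Olfr1411 for Herpud1 (0.945, 0.945 and 0.941), and Mtpap, Gfm1 and Fbp2 for Dnajb9 (0.987, 0.942 and 0.941). For Xbp1 they were Mir380, Tmtc1 and Gm6133 (r = 0.958, 0.882 and 0.872), for Atf4 Snord52, Cops7a and Phrf1 (0.975, 0.955 and 0.927), and for Ddit3 Gm9917, Olfr1471 and 2010003K11Rik (0.968, 0.949 and 0.922). Asns was followed by Snrpe, Clec4g and Cxcr2 (r = 0.938, 0.923 and 0.909), Trib3 by 1110038F14Rik, Ifi27 and Ppp1r14a (0.937, 0.912 and 0.896), and Chac1 by Sfrp1, Htra1 and Arid5a (0.971, 0.956 and 0.951). Of these genes, Hsph1, a cytosolic heat shock protein, was the one on a pathway list, and Clec4g was on the endothelial marker list. They were picked as the highest r among 19937 genes, so part of their height comes from that choice, and none was tested.

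The rest of the pathway was read through 116 measured genes in 11 lists. In the double knockout against wild type 2 were higher and 4 lower, 5.17% of them beside 4.19% of all genes. In Mdr2-KO against wild type 0 were higher and 2 lower, 1.72% beside 1.26%. Between the knockouts 0 were called. ER chaperones and folding enzymes had 0 of 20 called in any comparison, with log2 changes from -0.38 to 0.33 in the double knockout against wild type and a median of 0.02 beside -0.00 over all genes. At an unadjusted p under 0.05, 1 was higher there, Dnajc10 (log2 change 0.33, limma adjusted p = 0.102), an ER disulfide reductase, and 1 was lower. The lowest log2 change of the 20 was that of Manf, at -0.38. ER stress sensors and their proteases (0 of 5), ER-anchored CREB factors (0 of 5), eIF2alpha kinases and phosphatases (0 of 6), translocation and traffic (0 of 13), mitochondrial chaperones and proteases (0 of 7) and amino acid synthesis and transport (0 of 15) had no call in any comparison. Their lowest p in the double knockout against wild type were those of Atf6b (log2 change 0.18, limma adjusted p = 0.346), Creb3 (-0.16, 0.381), the interferon-induced kinase gene Eif2ak2 (-0.38, 0.123), Kdelr3 (0.33, 0.172), Lonp1 (0.14, 0.574) and Cth, which makes cysteine (0.45, 0.0536).

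**Figure D4:**
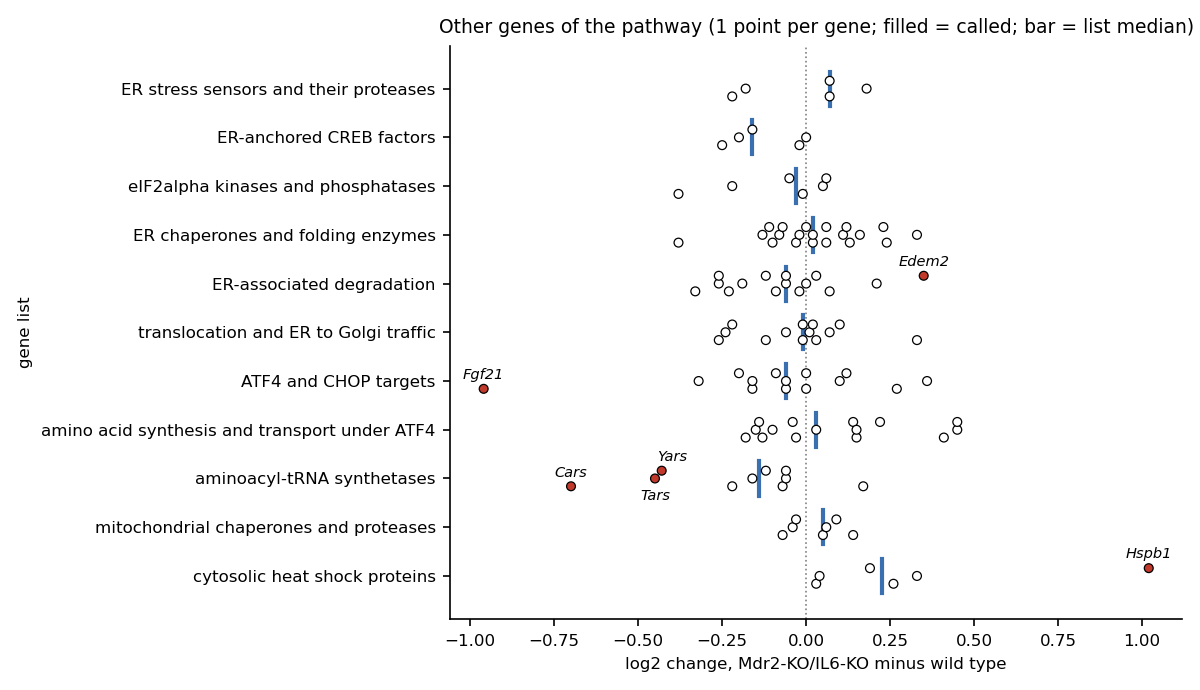
Log2 change in Mdr2-KO/IL6-KO against wild type (x axis) of 116 other genes of the pathway, in 11 lists (rows); each point is a gene, filled where called at an adjusted p under 0.05, and the bar is the list median. Cars, Yars, Tars and Fgf21 lie to the left as filled points and Edem2 and Hspb1 to the right, while the 20 chaperones lie between -0.38 and 0.33.

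Calls on these lists lay in aminoacyl-tRNA synthetases, enzymes that charge tRNAs and are known to respond to ATF4, and in single genes of 3 other lists. Of 10 synthetases measured 3 fell in the double knockout against wild type (1.28% of all genes) and 0 rose (2.91%). The list median was -0.14 beside -0.00 over all genes. In the same comparison the median was -0.06 for ATF4 and CHOP targets and 0.03 for amino acid synthesis and transport. Cars, for cysteine, stood at 8.06, 8.42 and 8.21 on the wild-type arrays, at 7.72, 7.88, 7.61 and 7.80 for Mdr2-KO, and at 7.47, 7.43, 7.58 and 7.64 for the double knockout. Both knockout groups lay wholly below wild type. Cars fell in the double knockout (log2 change -0.70 ± 0.10 SE, limma adjusted p = 0.00175) and in Mdr2-KO (log2 change -0.48 ± 0.10 SE, limma adjusted p = 0.038). Tars, for threonine, fell in the double knockout (log2 change -0.45 ± 0.11 SE, limma adjusted p = 0.0389). So did Yars, for tyrosine (log2 change -0.43 ± 0.10 SE, limma adjusted p = 0.0319). The Cars call in the double knockout held in each of 17 alternatives at an adjusted p under 0.05. The Cars call in Mdr2-KO held in 8 and ended with only the 2 groups compared (limma adjusted p = 0.116) and without wild-type replicate 2 or 3, Mdr2-KO replicate 1, 3 or 4, or double knockout replicate 1, 2 or 3 (at most 0.179). That of Yars held in 11 and ended without wild-type replicate 2 or 3 or any double knockout array (at most 0.144). That of Tars held in 9 and ended without any 1 wild-type or double knockout array or Mdr2-KO replicate 4 (at most 0.141).

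Of 14 ATF4 and CHOP targets 1 fell, Fgf21, the hepatic hormone of fasting and amino acid stress. It stood at 6.32, 6.29 and 7.0 on the wild-type arrays, at 5.44, 6.03, 5.36 and 5.37 for Mdr2-KO, and at 5.70, 5.46, 5.68 and 5.46 for the double knockout. Both knockout groups were below wild type (limma adjusted p = 0.0191 for Mdr2-KO and 0.0104 for the double knockout, at log2 changes of -0.98 and -0.96), and the call in Mdr2-KO ended without wild-type replicate 3 (limma adjusted p = 0.0698), without Mdr2-KO replicate 1, 3 or 4 (at most 0.061), and with only the 2 groups compared (0.0881). Of 15 degradation genes 1 rose in the double knockout, Edem2, which trims glycans of misfolded proteins (log2 change 0.35 ± 0.09 SE, limma adjusted p = 0.0459). It kept its call in 7 of 17 alternatives, and lost it with median centring (0.0796) and without any 1 wild-type or double knockout array or Mdr2-KO replicate 1 or 4 (limma adjusted p at most 0.181). Of 6 cytosolic heat shock genes 1 rose, the small heat shock protein Hspb1. It stood at 7.52, 6.82 and 7.74 on the wild-type arrays, at 7.84, 7.80, 8.07 and 7.90 for Mdr2-KO, and at 8.73, 8.11, 8.59 and 8.10 for the double knockout, with no overlap between any groups. The log2 change in the double knockout against wild type was 1.02 ± 0.20 SE (limma adjusted p = 0.0117), and the change of 0.48 against Mdr2-KO did not pass (limma adjusted p = 0.9995).

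**Figure D5:**
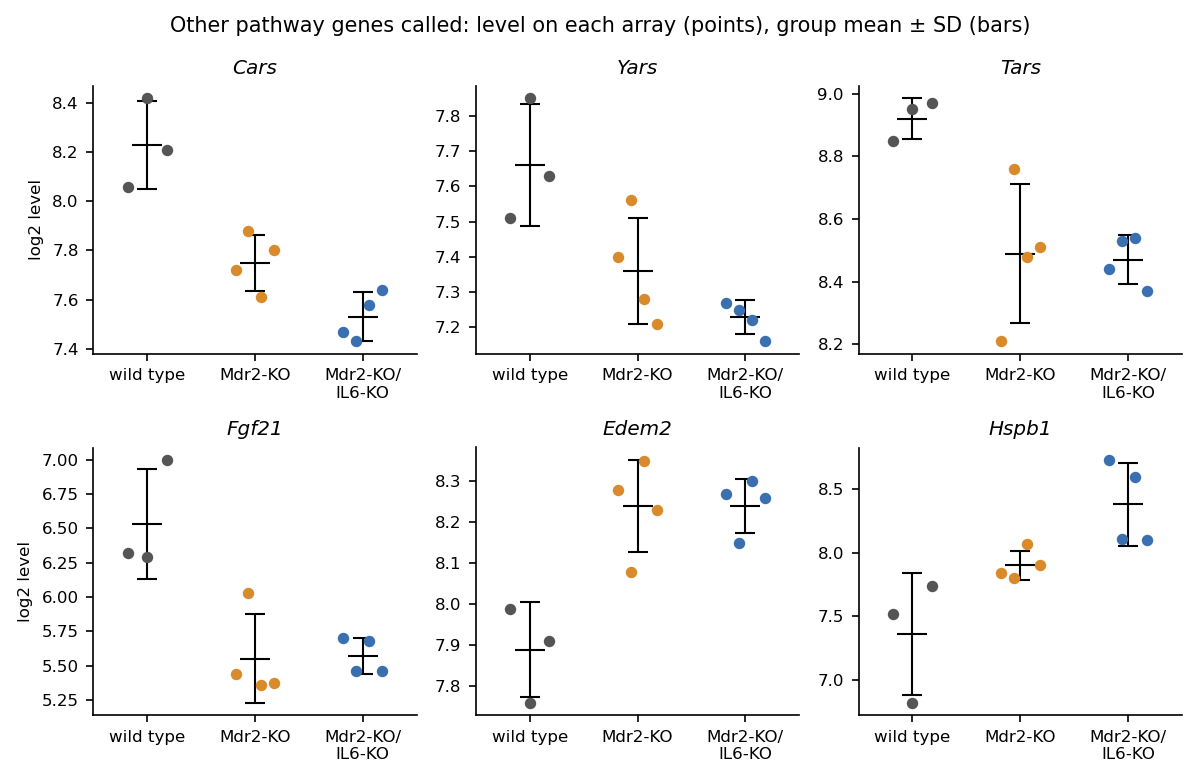
Log2 level (y axis, own range per panel) of the 6 other pathway genes called in Mdr2-KO/IL6-KO against wild type, in the 3 groups (x axis); points are arrays and bars the group mean ± SD. Cars, Yars, Tars and Fgf21 have every double knockout array below every wild-type array, and Edem2 and Hspb1 every one above.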

How the data were processed

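The authors deposited log2 levels of 35557 probe sets on 11 Affymetrix arrays. The submitters' processing notes name Partek and RMA, whose versions are not given in the sources used here. Values were used as deposited, without further normalization. Names came from GEO's platform annotation, with symbols updated against RefSeq (GRCm38.p6): 21789 had 1 symbol, 1621 several and 12147 none. Where a gene had several probe sets, the brightest by mean was used, leaving 19938 genes, of which 19856 matched RefSeq. All genes were fitted in 1 limma 3.58.1 model (R 4.3.3) with a mean per group and moderated by eBayes. The estimate of spread was shared by all groups. Leaving out an array outside a comparison could thus change a call without changing the log2 change. Tests were two-sided, and p-values were adjusted over all genes by Benjamini-Hochberg; a call is an adjusted p under 0.05. The script was tested on simulated data. The labels give no batch, and the number of arrays limits the precision. Of 127 pathway and 62 marker genes listed, 116 and 57 were measured. Named genes were the 9 members, up to 3 called genes per list, direction and comparison, otherwise the gene of lowest p in the double knockout against wild type, the 3 most similar genes per member, and Abcb4; Il6 was added later as a second check of the labels. Members and lists were chosen with earlier results of these data known. Alternatives were the mean of probe sets, brighter genes only, quantile normalization, median centring, trend and robust eBayes, only the 2 groups compared, an adjusted p under 0.01, leaving out each array, and for co-variation no centring.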

Additional observations from a re-analysis of the deposited data

Results flagged for a closer look

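Among 22 named genes, 44 groups of 4 arrays were checked for an array far from the rest, by the gap to its nearest neighbour over the range of the group. In Mdr2-KO replicate 2 Fgf21 read 6.03, against 5.44 for the next array, a gap of 0.88 of the range where the 95% critical value is 0.829. It was the 1 group so marked, and chance marks about 1 in 20 groups. Of the 9 stress response genes none was marked. The same array held the highest Hspa5, Dnajb9, Herpud1 and Ddit3 of all 11.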

How the results depend on the processing

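The count of members called in Mdr2-KO/IL6-KO against wild type was 3 as reported, 5 with only the 2 groups compared (Dnajb9 and Asns added), 1 at an adjusted p under 0.01 (Xbp1), and 1 to 4 with an array left out. It was 1 without wild-type replicate 3 and without double knockout replicate 2. Xbp1 was called in each of the 17 alternatives at an adjusted p under 0.05 (at most 0.0495, without wild-type replicate 3). In Mdr2-KO against wild type the count was 0, and 0 to 1 with an array left out; between the knockouts it was 0 in every alternative. Without centring, 3 pairs of members passed for co-variation, against 0 with it and 0 without Mdr2-KO replicate 2, a setting chosen after seeing the data. Signs turned in 9 cases, none of them called. With an array left out, the log2 change in Mdr2-KO against wild type ran from -0.00 to 0.17 for Ddit3 and from -0.04 to 0.18 for Hspa5 (lowest without Mdr2-KO replicate 2), and from -0.00 to 0.20 for Trib3 (lowest without wild-type replicate 2). Between the knockouts it ran from -0.06 (without Mdr2-KO replicate 1) to 0.11 for Ddit3, from -0.29 to 0.04 (without Mdr2-KO replicate 2) for Herpud1, and from -0.36 to 0.19 (without Mdr2-KO replicate 4) for Asns. Hspa5 in the double knockout against wild type was 0.03 with quantile normalization and ran from -0.15 to 0.06 with an array left out, above 0 without wild-type replicate 1 (0.01) or double knockout replicate 4 (0.06). The cause of these shifts was not tested beyond the arrays left out. Detection over background was not used here. No paired analysis was possible because the labels give no replicate numbers shared between groups.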
